A study of Mus musculus with 6 samples.

Results

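The miR-322, miR-503, miR-351 and miR-542 cluster is a group of neighbouring microRNA (miRNA) hairpins on the mouse X chromosome. Its 10 listed mature miRNAs were found by exact name in a table of 1542 mature miRNAs sequenced from whole kidney. They are mmu-miR-322-5p and mmu-miR-322-3p, mmu-miR-503-5p and mmu-miR-503-3p, mmu-miR-351-5p and mmu-miR-351-3p, mmu-miR-542-5p and mmu-miR-542-3p, mmu-miR-450a-5p and mmu-miR-450b-5p, written below without the species prefix. The table also held the 3 remaining arms of the cluster, miR-450a-1-3p, miR-450a-2-3p and miR-450b-3p, which are described beside the 10. The libraries came from 17-week-old female mice, with 3 libraries from C57BL/6 wild-type mice and 3 from MRL/lpr mice (genotype MRL/MpJ-Fas<lpr>/J). The MRL/lpr strain has a defective Fas gene (lpr) and develops lupus with nephritis, so strain background, mutation and disease cannot be told apart in this comparison. Nothing in the labels says that the 3 libraries of a strain came from separate animals, so the p-values reflect sample-to-sample spread, which may be technical. The comparison asks whether kidney miRNAs differ between the strains.

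A miRNA hairpin is cut into a duplex whose strands come from its 5′ side (the 5p arm) and its 3′ side (the 3p arm). Usually 1 arm is kept in Argonaute and the other is degraded. Bases 2 to 8, the seed, pair with target messenger RNAs. Hairpins that lie close together on the same strand can be cut from a shared primary transcript and still be processed or degraded at different rates. miR-322 is the mouse counterpart of human miR-424, and with miR-503 it is known from mouse myoblasts, where the pair promotes cell-cycle exit by repressing Cdc25a. miR-542-3p represses survivin (BIRC5), an inhibitor of cell death, in human cells.

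All 7 hairpins lie on the minus strand of chromosome X within 6353 bp (GRCm38.p6, RefSeq). In the direction of transcription the order is Mir322 (chrX:53054255-53054349), Mir503 (chrX:53053984-53054054), Mir351 (chrX:53053255-53053353), Mir542 (chrX:53049403-53049487), Mir450-2 (chrX:53048299-53048367), Mir450-1 (chrX:53048154-53048244) and Mir450b (chrX:53047997-53048078). Mir322 and Mir503 are 200 bp apart, whereas 3767 bp separate Mir351 from Mir542. None of the 7 overlaps another gene in GENCODE M21. The noncoding gene C430049B03Rik ends 696 bp upstream of Mir322 on the same strand, and the lincRNA Gm28730 lies in the gap between Mir351 and Mir542.

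**Figure D1:**
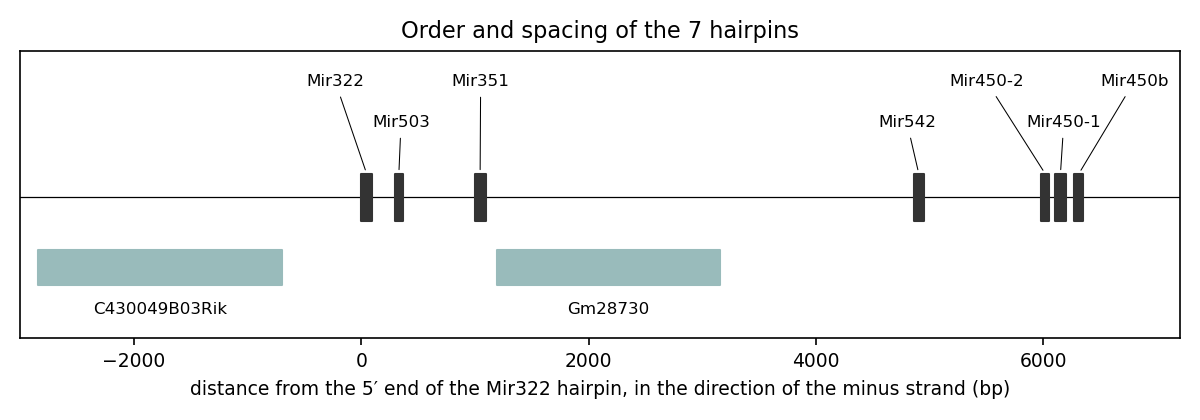
Map of the cluster, with distance in bp from the 5′ end of the Mir322 hairpin on the x axis; dark boxes are the 7 hairpins and pale boxes are neighbouring noncoding genes on the same strand. Mir322, Mir503 and Mir351 form a first group, and Mir542 with the miR-450 hairpins a second group after a gap of 3767 bp.

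The mature sequences (RefSeq, GRCm38.p6) show which members could act on the same targets. Capitals mark the seed.
miR-322-5p: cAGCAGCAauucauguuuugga
miR-503-5p: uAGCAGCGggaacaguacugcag
miR-16-5p: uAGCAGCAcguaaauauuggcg
miR-497a-5p: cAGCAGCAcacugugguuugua
miR-351-5p: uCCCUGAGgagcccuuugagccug
miR-125b-5p: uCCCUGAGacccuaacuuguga
miR-542-5p: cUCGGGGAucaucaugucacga
miR-542-3p: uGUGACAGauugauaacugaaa
miR-450a-5p: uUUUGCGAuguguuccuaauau
miR-450b-5p: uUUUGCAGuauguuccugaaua
The seed of miR-322-5p is that of the miR-15/16 family, known for repressing cyclins and BCL2, and the seed of miR-503-5p differs from it in 1 base. miR-351-5p carries the seed of the miR-125 family. The other arms printed share no whole seed with each other, so the cluster delivers several different seeds. Those of miR-450a-5p and miR-450b-5p are alike and differ in 2 bases. miR-450a-5p is encoded by both Mir450-1 and Mir450-2, and its source cannot be told apart. miR-450a-1-3p and miR-450b-3p share a run of 18 bases, and neither the labels nor the notes say how reads matching several miRNAs were assigned, so the split of counts between these 2 arms is uncertain.

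The members ranged over several orders of abundance, and miR-322-5p dominated. Levels are CPM, the counts of a miRNA set against the counts of its library, after TMM scaling, which adjusts for library composition. miR-322-5p had 4333, 6206 and 3534 CPM in C57BL/6 replicates 1, 2 and 3, and 3667, 4644 and 2930 CPM in MRL/lpr replicates 1, 2 and 3. It ranked 41st in the table by mean CPM and made up 85.5% ± 3.17 (SD, n = 3) of the counts of the 10 members in C57BL/6, with 86.7% ± 1.43 (SD, n = 3) in MRL/lpr. Next came miR-450a-5p and miR-542-5p, with means over all 6 libraries of 204 and 188 CPM, and miR-351-5p with 104 CPM. At the other end miR-351-3p had 0, 6 and 2 counts in C57BL/6 and 2, 7 and 4 in MRL/lpr. It was the 1 member that did not pass the filter on low counts, so 9 of the 10 members were among the 451 miRNAs tested. Levels of different miRNAs are only roughly comparable, because adapter ligation favours some ends over others. In bulk kidney, fewer cells that make a miRNA and less of it per cell cannot be told apart.

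No member passed the test of the strain difference (edgeR's quasi-likelihood F test, with an adjusted p under 0.05 over all 451 miRNAs), against 6.21% of all miRNAs tested. Of the 451, 19 rose and 9 fell in MRL/lpr, while scaling by library size alone gave 24 and 6. Without the adjustment, 2 of the 9 members had p under 0.05, against 20.8% of all miRNAs. DESeq2 called 1 member, miR-503-3p, against 51 of the 608 miRNAs (8.39%) to which it gave an adjusted p. The fitted log2 fold change (MRL/lpr over C57BL/6) was below 0 for 8 of the 9 members, against 51.4% of all miRNAs tested. Its median was -0.40 over the 9 members and -0.027 over all miRNAs. Under each other scaling tried 8 of the 9 were also below 0, including library size alone, which moved the median of all miRNAs by 0.15 on the log2 scale. Members of a cluster can come from the same transcript, so they are not separate observations of the strain difference. The summed level of the 10 members was 5154, 6959 and 4239 CPM in the C57BL/6 libraries and 4242, 5266 and 3433 CPM in the MRL/lpr libraries, so the groups overlapped. Without miR-322-5p the sum of the other 9 was 820, 752 and 705 CPM in C57BL/6, against 575, 622 and 503 CPM in MRL/lpr, and these groups did not overlap. Only the sum of the 10 had been planned, and neither sum was tested. Among single miRNAs tested, 14.9% had groups that did not overlap, with lower MRL/lpr values.

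**Figure D2:**
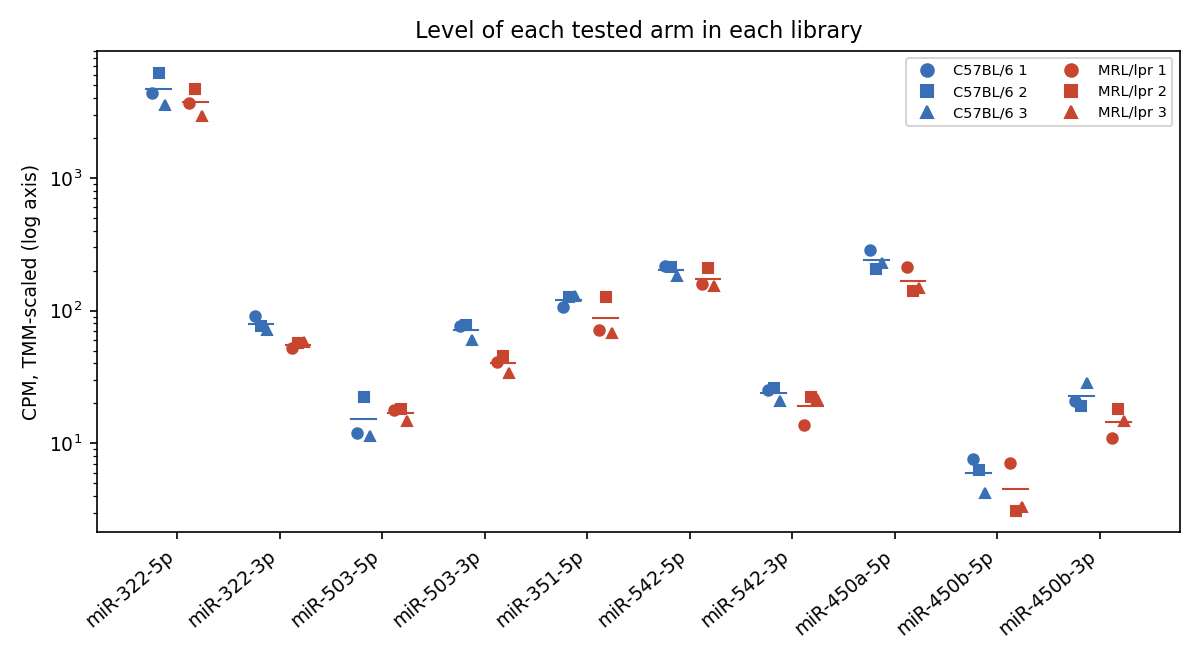
CPM on a log axis for the 9 tested members and miR-450b-3p, 1 point per library and a line at each group's mean. miR-322-5p lies far above the rest, and miR-322-3p, miR-503-3p and miR-450b-3p are the 3 arms of those plotted whose strains do not overlap.

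The 3p arm of miR-503 was the member nearest to the threshold. It had 76.1, 77.9 and 60.3 CPM in C57BL/6 replicates 1, 2 and 3 and 40.7, 45.6 and 33.6 CPM in MRL/lpr replicates 1, 2 and 3. Every MRL/lpr library was below every C57BL/6 library. Its log2 fold change was -0.84 ± 0.23 (SE; 95% interval -1.36 to -0.32; edgeR adjusted p = 0.0662). The call depended on the method, since DESeq2 gave an adjusted p of 0.0189 and edgeR with a minimum of 10 CPM in 3 libraries gave 0.049, while over all 17 alternatives the adjusted p ran up to 0.259. The 5p arm of the same hairpin, whose seed is close to that of miR-322-5p, had 11.9, 22.3 and 11.4 CPM in C57BL/6, against 17.7, 18.1 and 14.6 CPM in MRL/lpr. It was the 1 tested member with a log2 fold change above 0, at 0.14 ± 0.32 (SE; 95% interval -0.58 to 0.86; edgeR adjusted p = 0.825). That sign turned without C57BL/6 replicate 1 (-0.052) and without C57BL/6 replicate 3 (-0.07).

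miR-322-3p was the other member whose groups did not overlap. It had 91.7, 76.8 and 71.2 CPM in C57BL/6, against 51.8, 56.7 and 58.1 CPM in MRL/lpr, a log2 fold change of -0.52 ± 0.22 (SE; 95% interval -1.01 to -0.04; edgeR adjusted p = 0.201). Non-overlapping groups with lower MRL/lpr values were thus seen for 2 of the 9 members, against 14.9% of all miRNAs tested. The abundant 5p arm of this hairpin, miR-322-5p, overlapped between strains, with a log2 fold change of -0.32 ± 0.24 (SE; 95% interval -0.86 to 0.21; edgeR adjusted p = 0.496). Its highest library was C57BL/6 replicate 2, at 1.58 times the average of C57BL/6 replicates 1 and 3, and without that library its log2 fold change was -0.048.

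miR-351-5p had 106, 126 and 128 CPM in C57BL/6, against 71.2, 126 and 68.2 CPM in MRL/lpr. MRL/lpr replicate 2 lay at the level of C57BL/6, and the other MRL/lpr libraries lay below all C57BL/6 libraries. The log2 fold change was -0.44 ± 0.28 (SE; 95% interval -1.05 to 0.18; edgeR adjusted p = 0.397), and -0.81 without MRL/lpr replicate 2 (adjusted p = 0.0784). 

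Beyond the gap in the cluster, miR-542-5p had 215, 212 and 181 CPM in C57BL/6, against 159, 208 and 154 CPM in MRL/lpr, and miR-542-3p had 25.0, 26.0 and 20.9 CPM in C57BL/6, against 13.8, 22.3 and 21.5 CPM in MRL/lpr. The strains overlapped for both arms, with edgeR adjusted p of 0.577 and 0.553. miR-450a-5p had 287, 204 and 229 CPM in C57BL/6, against 214, 141 and 149 CPM in MRL/lpr. Its highest MRL/lpr library lay just above the lowest C57BL/6 library, and its log2 fold change was -0.51 ± 0.24 (SE; 95% interval -1.05 to 0.02; edgeR adjusted p = 0.249). miR-450b-5p had few reads, from 27 to 39 counts in C57BL/6 and from 16 to 50 in MRL/lpr, and its 95% interval, -1.39 to 0.59, allowed a difference of more than 2-fold. Of the 3 unlisted arms, miR-450b-3p was tested. It had 20.7, 19.1 and 28.7 CPM in C57BL/6, against 10.9, 18.1 and 14.6 CPM in MRL/lpr, without overlap, and a log2 fold change of -0.66 ± 0.29 (SE; edgeR adjusted p = 0.235). miR-450a-1-3p and miR-450a-2-3p had at most 6 and 3 counts in any library.

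The arms of each hairpin were very unequal, and the favoured side differed between neighbours. Over all 6 libraries the 5p arm had 62.7 times the counts of the 3p arm for miR-322, 175 times for miR-351 and 8.75 times for miR-542. miR-503 and miR-450b went the other way, with 3.42 and 3.5 times as many 3p as 5p counts. miR-450a-5p had 7284 counts in all, against 30 for both of its 3p arms together. Among the 119 hairpins with both arms measured at a mean of at least 1 CPM, 40.3% had more 3p than 5p counts. Ligation favours some ends over others, so a ratio shows the balance of reads rather than of molecules, while the same ratio can be compared between libraries. The Mir503 hairpin, with its 5p and then its 3p arm in capitals (RefSeq, GRCm38.p6, minus strand of chrX:53053984-53054054), shows the pair of arms whose ratio differed most between strains among the 4 cluster hairpins tested.
Mir503: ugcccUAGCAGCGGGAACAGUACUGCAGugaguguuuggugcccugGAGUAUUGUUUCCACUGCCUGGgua

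The 5p to 3p ratio of miR-503 was 0.156, 0.287 and 0.189 in C57BL/6 replicates 1, 2 and 3 and 0.434, 0.396 and 0.433 in MRL/lpr replicates 1, 2 and 3. The 3p arm was the more abundant in every library, and every MRL/lpr library had a higher ratio than every C57BL/6 library. The 5p arm made up 17.2% ± 4.54 (SD, n = 3) of the hairpin's counts in C57BL/6, with 29.6% ± 1.10 (SD, n = 3) in MRL/lpr. The ratio was 2.02-fold higher in MRL/lpr, a log2 difference of 1.02 ± 0.26 (SE; 95% interval 0.41 to 1.62), from limma on log2 of the ratio of CPM after adding 1. Its limma adjusted p over the 119 hairpins was 0.121, so it did not pass. By p it was number 5 of the 119. No hairpin of the 119 passed (0% called), 14 had an unadjusted p under 0.05 (11.8%), and the edgeR interaction test also called 0 of the 119. A minimum of 10 CPM in both arms called 2 of 60 hairpins, and no filter on low arms called 1 of 377. Leaving out MRL/lpr replicate 2 called 2 of 119, and none of these was a cluster hairpin. Groups did not overlap for 16.8% of the 119 hairpins of the main fit. The direction held in all 13 alternatives, with log2 differences from 0.83 to 1.24 and adjusted p from 0.0588 to 0.306.

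For the other hairpins the strains overlapped. The ratio of miR-322 was 47.3, 80.8 and 49.6 in C57BL/6, against 70.8, 81.9 and 50.4 in MRL/lpr (log2 difference 0.20 ± 0.30 SE, 95% interval -0.50 to 0.90, limma adjusted p = 0.842). Leaving out 1 library moved this difference between 0.048, without MRL/lpr replicate 2, and 0.45, without C57BL/6 replicate 2. That of miR-542 was 8.61, 8.16 and 8.65 in C57BL/6, against 11.5, 9.31 and 7.16 in MRL/lpr (log2 difference 0.10 ± 0.23 SE, 95% interval -0.44 to 0.64, limma adjusted p = 0.866). The miR-542 ratio was nearly the same in the 3 C57BL/6 libraries and spread more widely in MRL/lpr. That of miR-450b was 0.366, 0.328 and 0.147 in C57BL/6, against 0.649, 0.172 and 0.227 in MRL/lpr (limma adjusted p = 0.866), and its sign turned without C57BL/6 replicate 3 or MRL/lpr replicate 1. miR-351 could not be tested at the minimum of 1 CPM per arm. Its 3p arm gave 8 counts beside 2119 for the 5p arm in C57BL/6 and 13 beside 1564 in MRL/lpr.

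**Figure D3:**
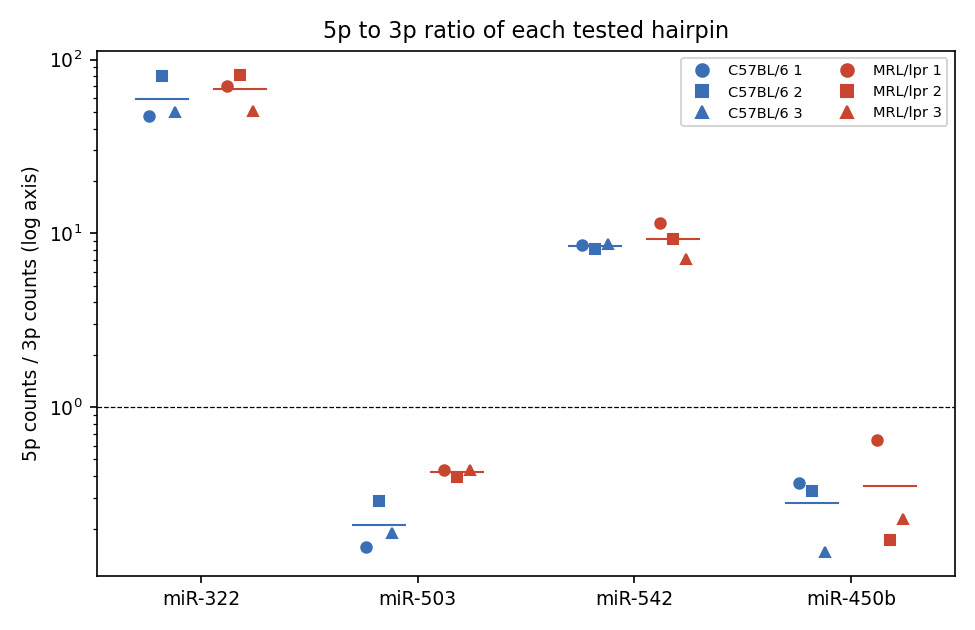
Ratio of 5p to 3p counts on a log axis for the 4 tested hairpins, 1 point per library and a line at each group's mean; the dashed line marks equal counts. miR-322 and miR-542 lie above it and miR-503 and miR-450b below it, and only for miR-503 do the strains not overlap.

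Other miRNAs with a seed found in the cluster were measured in the same libraries. Of the 7 listed miR-15/16 family miRNAs, 6 were in the table, and miR-497b among them does not carry the seed AGCAGCA. None of the 5 tested passed, and their median log2 fold change was -0.18. miR-16-5p, a ubiquitous miRNA, was the most abundant, at 32438 ± 2399 CPM (SD, n = 3) in C57BL/6, with 31534 ± 4453 CPM (SD, n = 3) in MRL/lpr. miR-322-5p made up 11.4% ± 2.50 of all counts with its seed (SD, n = 3) in C57BL/6, with 9.66% ± 1.28 (SD, n = 3) in MRL/lpr. miR-497a-5p, from a chromosome 11 cluster shared with miR-195a, had 846, 1313 and 685 CPM in C57BL/6, against 624, 609 and 471 CPM in MRL/lpr, without overlap (log2 fold change -0.74 ± 0.26 SE, edgeR adjusted p = 0.125, and 0.0289 without the filter on low counts). Without C57BL/6 replicate 2, its highest library, the log2 fold change was -0.41 (edgeR adjusted p = 0.222).

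Of the 2 miR-125 family miRNAs listed and tested, 1 rose. miR-125b-5p, abundant in mesenchymal and many other cells, was higher in MRL/lpr, from 355, 600 and 446 CPM to 885, 816 and 875 CPM (log2 fold change 0.88 ± 0.22 SE, edgeR adjusted p = 0.0451). The call was lost in 8 of 17 alternatives, among them each left-out library except C57BL/6 replicate 2. miR-125a-5p had 119, 140 and 170 CPM in C57BL/6, against 161, 191 and 145 CPM in MRL/lpr (edgeR adjusted p = 0.629). The summed level of the 3 miRNAs in the table with the seed CCCUGAG was 730 ± 143 CPM for C57BL/6, with 1112 ± 22.5 CPM for MRL/lpr (SD, n = 3). miR-351-5p contributed 16.6% ± 1.92 of these counts for C57BL/6, with 7.92% ± 2.76 for MRL/lpr (SD, n = 3), and the groups did not overlap. This share was not tested.

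**Figure D4:**
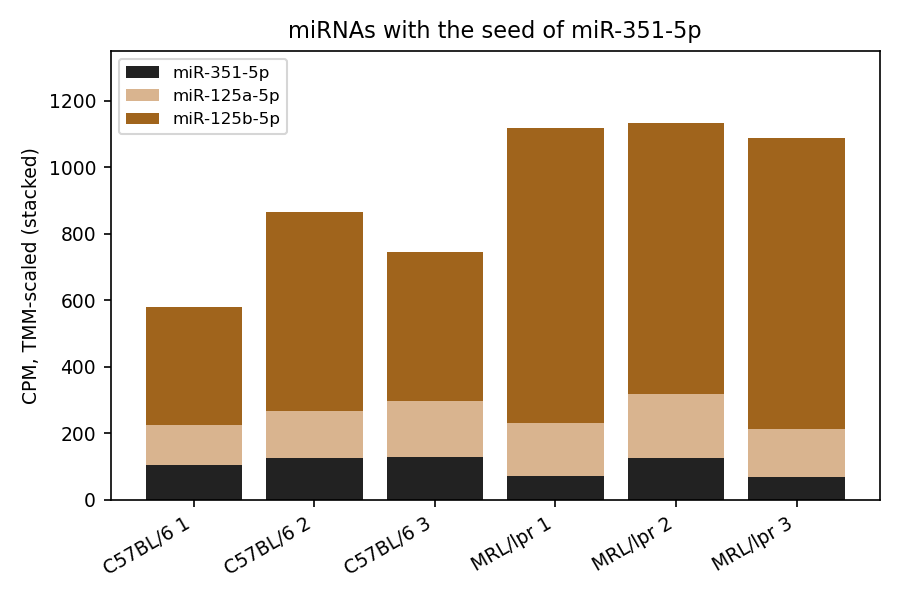
Stacked CPM of the 3 miRNAs with the seed of miR-351-5p in each library. miR-125b-5p is the largest part in every library and is higher in MRL/lpr, and miR-351-5p is a smaller share of the stack in each MRL/lpr library than in any C57BL/6 library.

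**Figure D5:**
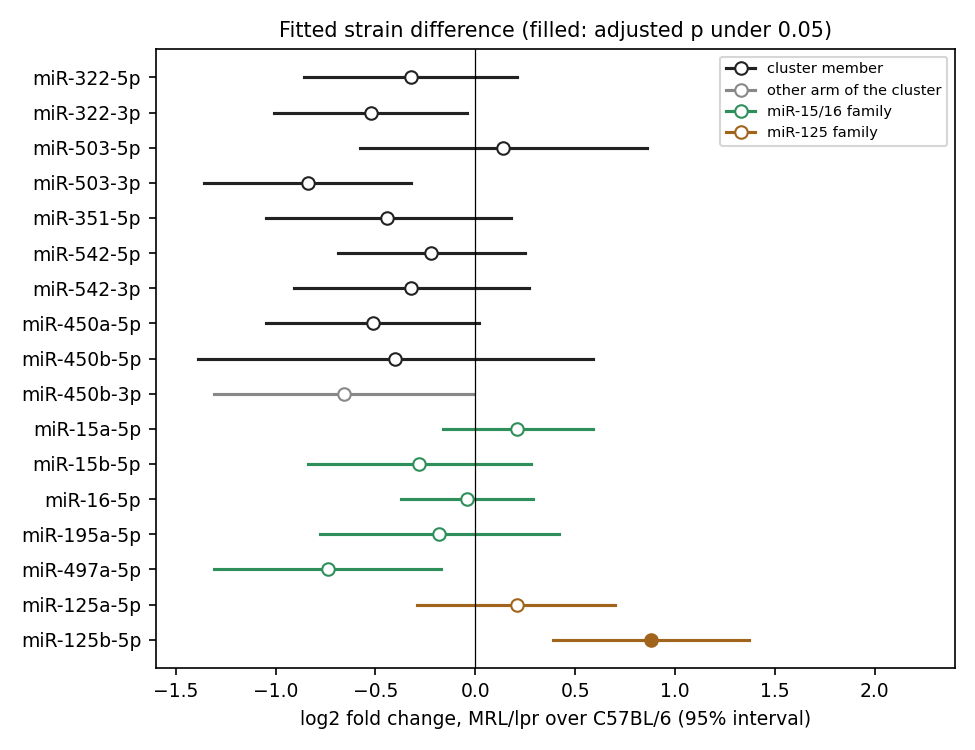
Fitted log2 fold change (MRL/lpr over C57BL/6) with its 95% interval for tested cluster miRNAs and seed families; a filled point passed the adjusted p threshold of 0.05. The 9 members have open points, with miR-503-3p at -0.84 farthest from 0, and miR-125b-5p is the 1 filled point.

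The pattern of miR-322-5p across the 6 libraries was compared with that of 173 named miRNAs outside the cluster with a mean of at least 50 CPM, by the root mean square difference of log2 CPM after centring each miRNA. The 5 nearest were miR-181d-5p (0.11), miR-199a-5p (0.12), miR-100-5p (0.14), miR-143-3p (0.17) and miR-15b-5p (0.17), against a median of 0.42 over the 173. All 5 had their highest level in C57BL/6 replicate 2 and none passed the strain test, as was true of miR-322-5p. They were chosen for likeness to it over these same libraries, so the shared traits are no separate observation. The nearest cluster member was miR-542-5p (0.21), while the 3p arm of miR-322 itself stood at 0.34 and miR-450a-5p at 0.45. 

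C57BL/6 replicate 2 stood apart in leukocyte miRNAs. All 7 listed leukocyte miRNAs were highest there among the C57BL/6 libraries, with a summed level of 28916 CPM against 6053 and 6225 CPM, and from 9387 to 11083 CPM in MRL/lpr. miR-146a-5p, an miRNA of immune cells, made up 25574 CPM of that highest sum. Between the strains 1 of the 7 rose, miR-155-5p, an miRNA of activated leukocytes (log2 fold change 1.30, edgeR adjusted p = 0.0331). miR-142a-3p, a blood cell miRNA, had 34.4, 88.8 and 25.7 CPM in C57BL/6, against 145, 111 and 151 CPM in MRL/lpr, without overlap (edgeR adjusted p = 0.0943). The rest of the leukocyte list was mixed, with log2 fold changes of 1.21 for miR-142a-5p, 0.24 for miR-150-5p and 0.01 for miR-342-3p. Those of miR-223-3p and miR-146a-5p were below 0, at -0.42 and -0.55. Of 6 mesenchymal and smooth muscle miRNAs 4 were highest in C57BL/6 replicate 2 among the C57BL/6 libraries. Sums of the 6 ran from 30402 to 43772 CPM for C57BL/6 and from 27084 to 34107 CPM for MRL/lpr. The lowest C57BL/6 sum was that of replicate 3, where miR-199a-3p had 37.7 CPM, against 2699 and 5817 CPM in replicates 1 and 2. miR-199b-3p, which is on no list, had a mean of 411 CPM over all libraries and a log2 fold change of -5.7. How reads matching several miRNAs were assigned is not given. The cause of the low miR-199a-3p value was not tested. Sums of 5 kidney epithelium miRNAs ran from 70181 CPM, in C57BL/6 replicate 2, to 96062 CPM for C57BL/6, and from 84914 to 100177 CPM for MRL/lpr. Of these 5, miR-204-5p rose between the strains (log2 fold change 1.52, edgeR adjusted p = 0.00141). No miRNA of the mesenchymal, endothelial or skeletal muscle lists passed that test. Sums of the 2 endothelial miRNAs ran from 69362 CPM, in C57BL/6 replicate 2, to 82924 CPM for C57BL/6. For MRL/lpr they ran from 58064 to 73074 CPM. Sums of 3 skeletal muscle miRNAs ran from 164 to 232 CPM for C57BL/6 (184 CPM in replicate 2) and 121 to 172 CPM for MRL/lpr. Replicate 2 was the highest C57BL/6 library for 0 of 2 endothelial, 1 of 3 skeletal muscle and 0 of 5 kidney epithelium miRNAs. No marker was at 0 in any library, so the kidney epithelium markers were present throughout. Of the 9 tested members, 4 were highest in C57BL/6 replicate 2 among all libraries, with miR-503-5p at 1.92 and miR-503-3p at 1.14 times the average of C57BL/6 replicates 1 and 3. The share of all miRNAs tested that were highest there was not counted, so whether this count or those of the lists is usual is not known. Without C57BL/6 replicate 2 no member passed, miR-503-3p had an edgeR adjusted p of 0.051, and the miR-503 ratio differed by 1.24 on the log2 scale (limma adjusted p = 0.158). The part of these cell types in the members' levels was not tested.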

How the data were processed

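Total RNA from kidney was extracted with TRIzol, adapters were ligated, and the amplified, gel-selected libraries were sequenced on a G400 instrument, per the labels' protocols. Bowtie2, DESeq2 and the build GRCm38.p6 are named without role in the submitters' processing notes. The authors deposited 1 table of whole-number counts per mature miRNA without normalization, of which 1190 rows carry miRBase names and 352 are predicted entries. Totals ran from 5259528 to 6773829 counts per library, so members with under 100 counts have a counting error of over 10%. Library pairs within a strain differed far beyond counting noise (chi-square per degree of freedom at least 146).

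The members and lists were chosen with earlier results of these data known. Strain differences were fitted by edgeR 4.0.16 under R 4.3.3 (filterByExpr with minimum count 10 and total 15, TMM, robust quasi-likelihood fit, Benjamini-Hochberg, threshold 0.05); standard errors and 95% intervals came from the coefficient and its F statistic. Arm ratios were fitted with limma 3.58.1 on log2 of 5p over 3p CPM after adding 1 CPM to each, for hairpins with a mean of at least 1 CPM per arm. Alternatives included DESeq2 1.42.0, other scalings and filters, limma-voom, leaving out each library and a replicate block; summing the miR-450a and miR-450b arms was added once the data had been seen. The main edgeR fit and the main limma fit of the arm ratios were tried on simulated counts, and the alternatives were not. Text names the 10 members, the 3 other arms, the seed families, and the 5 miRNAs nearest to miR-322-5p. It also names some miRNAs of the cell type lists, and miR-199b-3p, which is on no list, picked without a set rule. Sequences are from RefSeq, and all 13 arms matched by name. Figures used matplotlib 3.10.9.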

Additional observations from a re-analysis of the deposited data

How the results depend on the processing

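The number of members past the threshold was 0 in 15 of 17 alternatives, including each library left out (0 to 0), and 1 (miR-503-3p) with DESeq2 and with a minimum of 10 CPM in 3 libraries. Of all miRNAs tested 28 passed (6.21%), against 64 without a filter, 51 with DESeq2 (8.39%) and 34 with the minimum of 10 CPM. At that minimum 8 members were tested. The number of miRNAs tested depends on the filter, so these counts cannot be compared as shares. The replicate block gave 13 miRNAs past the threshold, and leaving a library out gave 5 to 54. The cause was not tested. The labels do not say that replicate numbers pair the libraries. Deviations of same-numbered libraries correlated at -0.343, 0.0196 and -0.327, and not every library correlated best with its own number. With so few libraries per strain these correlations depend on each other, so they cannot exclude pairing. The block changed no call of a member or of a cluster arm ratio. For cluster hairpins, 0 arm ratios passed in every alternative. Signs turned only for values that had not passed. With a library left out, log2 fold changes ran from -0.07 to 0.55 for miR-503-5p, -0.49 to 0.061 for miR-15b-5p, -0.39 to 0.20 for miR-195a-5p and -0.19 to 0.058 for miR-16-5p, and log2 differences of the arm ratio from -0.056 to 0.27 for miR-542 and -0.26 to 0.57 for miR-450b. miR-16-5p also turned with library size alone (0.10) and with a minimum of 10 CPM (0.012). With the miR-450a and miR-450b arms summed, their log2 difference was 0.11 (limma adjusted p = 0.884). Depth limits the low arms: miR-351-3p and the miR-450a 3p arms are too sparse to compare.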
